A study of Homo sapiens with 2 samples.

Results

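The genes described here are 57 neighbours on the short arm of chromosome 11, from TEAD1 to PEX16, in UMUC3 cells, a human bladder carcinoma line. They were chosen by position and level: each has a GENCODE start on GRCh38 chromosome 11 between 12674591 and 45909669 and reached 10 CPM in at least 1 library, where CPM is a gene's count of unique molecular identifiers (UMIs, each standing for 1 captured transcript) per 1000000 UMIs. CD82 and LDHA also start in that window and were left out by the rule. Of the 33538 genes listed, 7872 reached that level anywhere in the genome. The window holds 273 listed genes besides CD82 and LDHA, so 216 of them were not measured: 107 had no UMI in either library, 74 had UMIs but stayed under 1 CPM and 35 lay between 1 and 10 CPM. The window had been picked because its genes were lower in the knockdown library, so every value of knockdown over control below is a description of the choice and no evidence for it.

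The study compared 1 library of control UMUC3 cells with 1 library of UMUC3 cells with knockdown of GANAB, which encodes the catalytic subunit of glucosidase II, an endoplasmic reticulum enzyme that trims glucose from N-linked glycans. Both kinds of cell were placed in the bladders of C57 nude mice, which lack mature T cells but keep other host cells, and were recovered after 14 days. Neither the number of mice, nor how the knockdown was made, nor whether either population was 1 clone is given in the sources used here. With 1 library per group no test across samples was possible, no p-value is given, and each interval covers counting error only. UMIs were summed over barcodes of at least 15000 UMIs, of which the control library held 4386 (214204741 UMIs) and the knockdown library 2674 (132761258 UMIs), with medians of 44036 and 40929 UMIs per barcode. GANAB, which lies on the long arm of the same chromosome, stood at 127 CPM in the control library and 42.3 CPM in the knockdown library. Of 8 carcinoma markers, 6 reached 10 CPM in control and 7 in knockdown cells, and their summed level was 5258 and 7996 CPM. VIM alone gave 3547 and 5695 CPM of these sums, and CAV1 342 and 1127 CPM. KRT7, KRT8 and KRT18 were also higher in knockdown cells, while TM4SF1 (986 and 672 CPM) and S100A2 (18.2 and 15.7 CPM) were lower. KRT19 was at 0.243 and 0.512 CPM. None of 8 urothelial (1.60 and 1.46 CPM summed), 6 fibroblast (14.8 and 12.1 CPM), 4 endothelial or 3 erythroid markers did so, and UPK3A and KRT20 were at 0. Of 12 leukocyte markers (27.8 and 26.6 CPM) only CD68 reached 10 CPM.

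The cells of each library were also parted by TMEM132D-AS1, a long noncoding RNA gene on chromosome 12 that lies antisense to TMEM132D. It stood at 9.41 CPM in the control library and 131 CPM in the knockdown library. Barcodes with at least 2 of its UMIs are called TMEM132D-AS1-positive here, and those with 0 or 1 are called negative. There were 241 positive barcodes in the control library (5.49%) and 1942 in the knockdown library (72.6%). After each barcode was thinned to 15000 UMIs the shares were 3.53% and 52.5%. Barcodes of 2 to 100 UMIs, which hold free RNA, carried the gene at 8.74 and 109 CPM, so that single UMIs can reach cells that do not make it. GANAB itself stood at 130 CPM in positive and 126 CPM in negative control cells, and at 38.1 and 53.9 CPM in positive and negative knockdown cells. MAN1A1, a Golgi mannosidase gene, had 81.4 CPM in negative and 11.6 CPM in positive control cells and 2.65 and 0.522 CPM in negative and positive knockdown cells.

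Genes on one chromosome arm have mostly unrelated functions, and what neighbours share is position: the DNA segment itself, its chromatin domain and its replication timing. In carcinoma lines whole segments are often gained or lost, and the RNA of many genes of such a segment then tends to move together. DNA copy number was not measured in these libraries. Among the 57 genes are parts of the ribosome, the proteasome and the translation initiation machinery, sorting factors, metabolic enzymes, 2 well-known surface proteins (CD44 and CD59) and the Hippo pathway transcription factor TEAD1. All but 2 of them code for protein, the others being the long noncoding RNA genes LINC00958 and BBOX1-AS1.

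The 4 promoter stretches below show the range of base composition at the members' starts. Each is the 250 bases before a RefSeq start (GRCh38.p14), given 5′ to 3′ on the strand of the gene, and none holds an annotated GENCODE exon. Capitals mark GGGCGG or its complement CCGCCC, the GC box. They were picked after the values were seen: FAR1 and QSER1 are rich in G and C and hold GC boxes, RRAS2 and HIPK3 are poor in both, and FAR1, QSER1 and RRAS2 were among the lower members while HIPK3 was closer to the control level.
FAR1 (chr11:13668418-13668667, plus strand): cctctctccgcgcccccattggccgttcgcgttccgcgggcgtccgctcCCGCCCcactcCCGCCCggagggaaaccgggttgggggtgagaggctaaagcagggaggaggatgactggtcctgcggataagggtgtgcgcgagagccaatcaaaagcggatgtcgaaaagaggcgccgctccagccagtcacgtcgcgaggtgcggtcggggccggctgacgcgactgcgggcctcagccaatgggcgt
QSER1 (chr11:32892561-32892810, plus strand): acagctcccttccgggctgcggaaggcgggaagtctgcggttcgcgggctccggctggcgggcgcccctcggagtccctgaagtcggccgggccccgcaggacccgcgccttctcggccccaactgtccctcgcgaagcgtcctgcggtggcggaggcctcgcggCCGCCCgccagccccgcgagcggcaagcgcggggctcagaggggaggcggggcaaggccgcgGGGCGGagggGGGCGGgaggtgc
RRAS2 (chr11:14364507-14364756, minus strand): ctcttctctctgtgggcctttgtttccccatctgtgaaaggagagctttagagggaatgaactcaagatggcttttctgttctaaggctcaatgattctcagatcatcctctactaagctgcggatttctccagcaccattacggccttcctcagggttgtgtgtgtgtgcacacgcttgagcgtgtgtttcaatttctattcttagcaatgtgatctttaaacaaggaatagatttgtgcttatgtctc
HIPK3 (chr11:33256422-33256671, plus strand): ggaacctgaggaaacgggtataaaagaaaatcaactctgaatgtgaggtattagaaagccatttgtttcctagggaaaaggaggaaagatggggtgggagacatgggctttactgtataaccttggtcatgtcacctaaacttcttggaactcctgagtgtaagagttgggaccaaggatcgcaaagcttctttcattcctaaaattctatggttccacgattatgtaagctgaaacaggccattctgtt

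Promoter windows were found for 49 of the 57 members by symbol, 1 start per gene. Their median G and C content was 62.8%, beside 58% over all 34941 windows of the table and 65.2% over the 6336 windows of measured genes. GGGCGG was present on either strand in 34 windows (69.4%), beside 42.5% of all windows and 70.2% of those of measured genes. TATAAA was in 2 (4.08%, beside 10.8% and 4.78%), CCAAT in 24 (49%, beside 32% and 35.2%) and CACGTG in 7 (14.3%, beside 6.32% and 9.67%). These shares were not tested, and overlapping windows, such as those of HPS5 and GTF2H1 or KIF18A and METTL15, may count a site more than once. The motifs can overlap one another, and a match is a run of letters, not a bound site. The median log2 ratio of knockdown over control was -0.74 for the 34 members with a GC box and -0.80 for the 15 without. Between positive and negative control cells the medians were -0.61 and -0.51. By the size rule given below, 23 of the 34 and 10 of the 15 were lower for the libraries, and 20 and 7 within the control library, so both kinds of promoter held lower members. The windows of 4 pairs on opposite strands overlapped: KIF18A and METTL15 shared 231 bases, IMMP1L and ELP4 144, HPS5 and GTF2H1 74, and APIP and PDHX 58.

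In knockdown over control, 56 of the 57 members had a log2 ratio below 0, and for 55 the 95% interval lay wholly below 0. Of all 7872 measured genes, 56.8% were below 0 and 51.1% had such an interval. A member is called lower where its CPM was lower by at least 1.5-fold with the interval below 0, which is a limit on size only. By it 37 of 57 were lower and 1 was higher, while 10.4% of all measured genes were lower and 7.70% higher. The members' median log2 ratio was -0.73 (quartiles -0.92 and -0.57), beside -0.07 over all measured genes. The 6 members at -1 or less were SAAL1, KIF18A, NUCB2, UEVLD, RRAS2 and PSMA1, beside 185 of all 7872 measured genes. Of the 57, 48 reached 10 CPM in both libraries and 9 only in the control library. A gene that passed only there was lower in the knockdown library by that rule alone. KIF18A and UEVLD are among those 9. The 48 had a median of -0.68, 29 of them were lower by the size rule and 4 were at -1 or less.

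The comparison that the choice of window did not use is the one within the control library, between its 241 positive and 4145 negative barcodes. Earlier results of these data had already shown the drop in some of its cells, so it is no independent support. In it 56 of 57 members were below 0 and 54 had an interval wholly below 0, beside 51.1% and 30.7% of all measured genes. By the size rule 31 of 57 were lower and 0 higher, beside 4.27% and 4.87% of all measured genes. The median log2 ratio was -0.60 (quartiles -0.73 and -0.42), beside -0.01 over all measured genes. For the 48 members measured in both libraries it was -0.58, and 24 of them were lower by the size rule. These control cells also enter the comparison of libraries, where negative control cells make up most of the control level, so the ratios of both comparisons share a denominator and are set side by side only. Positive and negative control cells come from 1 library and are not replicates. They differed in depth, with medians of 51552 and 43757 UMIs, and 54.4% and 49.9% of them had more than 1 UMI of TOP2A and MKI67, which mark dividing cells. Among control cells with at most 1 such UMI the members' median was -0.58, and among those of 30000 to 60000 UMIs it was -0.64. Summed fibroblast markers stood at 25.1 CPM in positive and 14.1 CPM in negative control cells. Leukocyte markers summed to 42.4 and 26.8 CPM, of which CD68 alone gave 41.8 and 25.7 CPM. The part of either sum in the ratios was not tested.

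**Figure D1:**
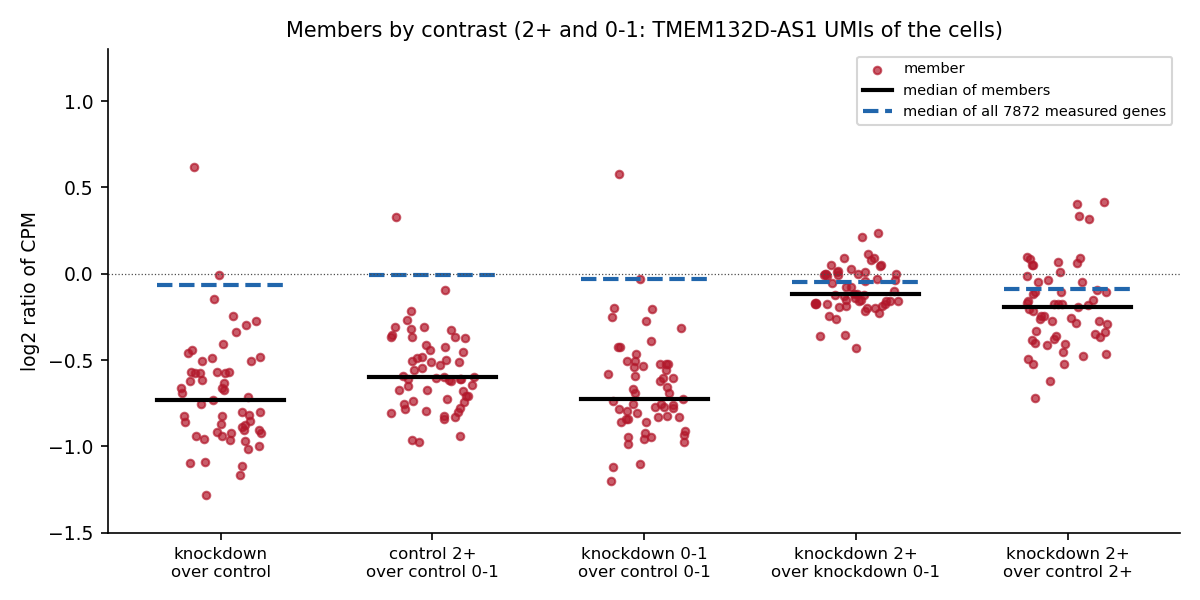
Log2 ratio of CPM (vertical axis) of each of the 57 members (points, spread sideways at random) in 5 comparisons, with the members' median (black line) and the median of all 7872 measured genes (dashed line); 2+ and 0-1 are TMEM132D-AS1 UMIs per barcode. The members sit well below the dashed line in the 3 comparisons against negative control cells or the control library (medians -0.73, -0.60 and -0.73) and near it in the other 2 (-0.12 and -0.19).

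In the knockdown library the members differed little by TMEM132D-AS1. Positive over negative knockdown cells gave a median of -0.12, beside -0.05 over all measured genes, with 44 of 57 below 0 (64.2% of all measured genes) and 0 lower and 0 higher by the size rule (0.673% and 0.318% of all measured genes). Negative knockdown over negative control cells gave -0.73, with 56 of 57 below 0 (53.6% of all measured genes) and 37 lower (8.51%). With only barcodes that had 0 TMEM132D-AS1 UMIs on both sides, 618 and 4103 of them, the median was -0.75, 56 of 57 were below 0 (54.5% of all measured genes) and 37 were lower (8.52%). Of the 48 members measured in both libraries, 30 were lower with negative cells and 29 with barcodes of 0 UMIs. The 732 negative knockdown cells thus had the same median as the whole library. How many of them made TMEM132D-AS1 without a UMI being caught was not tested.

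Positive cells of both libraries were closer to each other. Positive knockdown over positive control cells had a median of -0.19, beside -0.09 over all measured genes, with 45 of 57 below 0 (62.1% of all measured genes). Only SAAL1 and NAV2 were lower by the size rule, 2 of 57 beside 4.70% of all measured genes. NAV2 had reached 10 CPM only in the control library, and of the 48 members measured in both libraries 1 was lower. SAAL1, a gene tied to synoviocyte growth, stood at 16.7 CPM in positive control and 10.1 CPM in positive knockdown cells (log2 ratio -0.72, interval -0.93 to -0.50). NAV2, a neuron navigator family gene, stood at 9.29 and 6.05 CPM (-0.62, -0.90 to -0.33). Negative knockdown over positive control cells had a median of -0.10, with 38 of 57 below 0 (54.7% of all measured genes) and 0 lower (3.09%).

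Summed over all 57, the members took 0.632% of UMIs in negative control cells, 0.430% in positive control cells, 0.402% in negative knockdown cells and 0.392% in positive knockdown cells. The first of these 4 groups stands apart and the other 3 lie close together. The pooled log2 ratio was -0.55 (-0.57 to -0.54) for positive over negative control cells and -0.04 (-0.04 to -0.03) for positive over negative knockdown cells. RPS13 alone gave 3228 of the members' 6188 CPM in the control library, so the sums were also taken without it. They were then 0.302%, 0.206%, 0.185% and 0.175% in the same order, so the last 3 groups lay less close together. Without RPS13 the pooled log2 ratio was -0.23 (-0.25 to -0.22) for positive knockdown over positive control cells. It was -0.16 (-0.18 to -0.14) for negative knockdown over positive control cells and -0.55 (-0.57 to -0.53) for positive over negative control cells. Barcodes of 2 to 100 UMIs held the members at 0.622% in the control and 0.398% in the knockdown one, close to the 0.619% and 0.394% of the cells of each library.

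Single barcodes showed the same order. In the control library the median share of UMIs in the members was 0.633% for the 4103 barcodes with 0 TMEM132D-AS1 UMIs, 0.569% for the 42 with 1, 0.440% for the 17 with 2, 0.416% for the 48 with 3 or 4 and 0.405% for the 176 with at least 5. The 42 barcodes with 1 UMI spread widely, with quartiles of 0.417% and 0.649% that reach the medians of both sides. In the knockdown library the medians were 0.397%, 0.377%, 0.376%, 0.385% and 0.393% over 618, 114, 164, 335 and 1443 barcodes, with no such step. Median depth differed between these knockdown classes, from 28268 UMIs at 2 TMEM132D-AS1 UMIs to 46564 at 5 or more. The control groups overlapped little: 108 of 4145 negative control barcodes (2.61%) lay at or under the median of the positive ones, and 9 of 241 positive ones (3.73%) at or over the median of the negative ones. Among knockdown barcodes, 34 of 732 negative (4.64%) and 12 of 1942 positive ones (0.618%) reached the median of negative control barcodes.

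**Figure D2:**
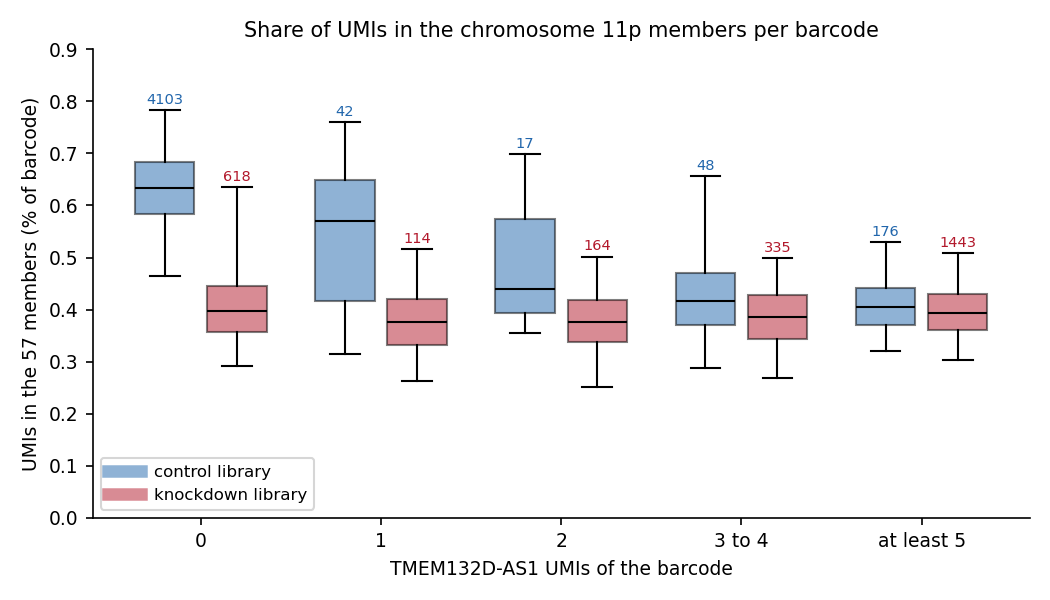
Share of each barcode's UMIs in the 57 members (vertical axis, percent) by the barcode's TMEM132D-AS1 UMIs (horizontal axis); boxes give quartiles and median, whiskers the 5th and 95th percentile, and numbers the barcodes. Control medians go from 0.633% at 0 UMIs to 0.405% at 5 or more, while knockdown medians stay between 0.376% and 0.397%.

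RPS13, a protein of the small ribosomal subunit, was the most abundant member. It stood at 3228 CPM in the control library and 2167 CPM in the knockdown library, a log2 ratio of -0.58 (-0.58 to -0.57). By group it was 3296 CPM in negative control, 2238 in positive control, 2172 in negative knockdown and 2165 in positive knockdown cells. Only the negative control cells were high. The 80 other ribosomal protein genes measured give a background for it: their median log2 ratio of knockdown over control was 0.09 and 2 of them were lower than RPS13. For positive over negative control cells RPS13 was at -0.56, their median was 0.01 and 1 was lower. RPS13 overlaps PIK3C2A on the same strand by annotation, so reads at that end could have been given to either.

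The measured genes of every function list below are members of this window, so their counts repeat the block and are no results about functions. For all lists the background is 37 and 31 of the 57 members lower for the libraries and within the control library. Of all measured genes 10.4% and 4.27% were lower. The other members of translation and RNA processing were 9 genes. Of the 10 on that list, all measured, 10 were below 0 in both comparisons, with 7 lower in knockdown over control (median -0.81) and 6 lower in positive over negative control cells (-0.63). EIF3M, a subunit of the translation initiation factor eIF3, stood at 282 CPM in negative control, 201 in positive control, 162 in negative knockdown and 140 in positive knockdown cells. Its log2 ratio was -0.92 (-0.95 to -0.90) for the libraries and -0.49 (-0.54 to -0.43) within the control library. For EIF3M the positive control cells lay between the negative control cells and the knockdown cells. CAPRIN1, an RNA-binding protein of stress granules, stood at 89.5, 67.1, 63.1 and 57.9 CPM in the same order of groups, with log2 ratios of -0.57 and -0.41 that missed the size rule. CSTF3, a cleavage stimulation factor subunit needed for 3′ end formation, stood at 45.2, 26.3, 24.96 and 21.7 CPM.

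Members of DNA repair and cell division were few. The list has 6 genes, of which 4 were measured, with 3 lower for the libraries (median -0.94) and 1 lower within the control library (-0.51). KIF18A, a kinesin that dampens chromosome movement at the spindle in mitosis, stood at 14.8 CPM in negative control, 8.34 in positive control, 7.64 in negative knockdown and 5.99 in positive knockdown cells. Its log2 ratios were -1.17 (-1.28 to -1.06) and -0.83 (-1.11 to -0.56), and of the 4 it alone was called lower within the control library. Cells with more than 1 UMI of TOP2A and MKI67 made up 49.9%, 54.4%, 40.3% and 33.8% of those 4 groups, and the part of that in the KIF18A values was not tested. CCDC34 stood at 66.4, 46.9, 37.3 and 33.3 CPM in the same order. GTF2H1, a subunit of the transcription and nucleotide excision repair factor TFIIH, stood at 21.3, 14.9, 11.9 and 10.4 CPM. ALKBH3, a DNA demethylase that removes alkyl lesions, stood at 13.9, 11.99, 9.84 and 9.06 CPM, and its interval within the control library reached past 0 (-0.45 to 0.01). KIF18A and ALKBH3 reached 10 CPM only in the control library, so that they were below it in the knockdown library follows from the level rule.

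The list of proteasome, ubiquitin and sorting genes had the most measured members, 14 of 15. All 14 were below 0 in both comparisons, 8 were lower for the libraries (median -0.74) and 7 within the control library (-0.55). Of all 57 members 37 and 31 were lower. PSMA1, an alpha subunit of the 20S proteasome core, stood at 236 CPM in negative control, 153 in positive control, 123 in negative knockdown and 111 in positive knockdown cells. Its CPM was 2.02-fold lower in the knockdown library, a log2 ratio of -1.02 (-1.04 to -0.99), and -0.62 (-0.69 to -0.56) within the control library. NUCB2, a calcium-binding protein of the Golgi and precursor of nesfatin, stood at 122, 68.2, 56.96 and 54.0 CPM in the same order, with log2 ratios of -1.12 and -0.84. PSMA1 and NUCB2 were thus lower in all other groups than in negative control cells. TSG101, a subunit of the ESCRT-I sorting complex, stood at 50.03, 30.6, 28.0 and 25.1 CPM. RCN1, a calcium-binding protein of the endoplasmic reticulum, stood at 124, 88.9, 86.6 and 89.5 CPM, with log2 ratios of -0.46 and -0.48 that missed the size rule. COPB1, the beta subunit of the COPI vesicle coat, was the list's exception: it stood at 51.7, 48.4, 50.7 and 45.03 CPM, with log2 ratios of -0.15 (-0.19 to -0.10) and -0.10 (-0.21 to 0.02). Among control cells with at most 1 UMI of TOP2A and MKI67 the latter was 0.053. COPB1 lies next to PSMA1, and the listed gene AC018523.2 overlaps both on their strand.

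Of 15 listed genes of metabolism and mitochondria 8 were measured, all below 0 in both comparisons, with 6 lower in each (medians -0.78 and -0.60). HSD17B12, an enzyme of very long-chain fatty acid elongation, stood at 63.0 CPM in negative control, 41.6 in positive control, 31.8 in negative knockdown and 31.5 in positive knockdown cells. HTATIP2, an oxidoreductase also known as TIP30, stood at 76.3, 46.1, 48.4 and 42.4 CPM. FAR1, which makes fatty alcohols for ether lipids, stood at 35.8, 21.4, 20.4 and 17.9 CPM. All 3 genes were highest in negative control cells, and HSD17B12 had an intermediate level in positive control cells. APIP, an enzyme of the methionine salvage pathway, stood at 47.3, 32.3, 27.7 and 24.9 CPM, with log2 ratios of -0.86 and -0.55. CAT, the catalase that breaks down hydrogen peroxide, had another order: 27.3, 18.0, 22.96 and 22.4 CPM. Its log2 ratio was -0.60 (-0.79 to -0.42) within the control library and -0.24 (-0.31 to -0.18) for the libraries, and 0.32 (0.13 to 0.51) for positive knockdown over positive control cells.

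Surface proteins were measured at 3 of 14 listed genes, with 2 lower for the libraries and 1 within the control library. CD44, the hyaluronan receptor, stood at 239 CPM in negative control, 178 in positive control, 158 in negative knockdown and 158 in positive knockdown cells. Its log2 ratios were -0.57 (-0.60 to -0.55) and -0.42 (-0.48 to -0.36), both short of the size rule. CD59, the inhibitor of the complement membrane attack complex, stood at 172, 134, 104 and 105 CPM, with log2 ratios of -0.69 and -0.36. CD59 also had an intermediate level in positive control cells. LDLRAD3, a receptor of the LDL receptor family, stood at 12.7, 7.17, 7.87 and 6.65 CPM, with log2 ratios of -0.82 in both comparisons. LDLRAD3 reached 10 CPM only in the control library.

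Of the 14 window genes listed under transcription factors and clock 3 were measured, all below 0, with 2 lower for the libraries and 0 within the control library. TEAD1, the DNA-binding partner of YAP and TAZ in the Hippo pathway, stood at 89.7 CPM in negative control, 65.5 in positive control, 53.2 in negative knockdown and 56.7 in positive knockdown cells. Its log2 ratios were -0.66 (-0.70 to -0.62) and -0.45 (-0.55 to -0.36). BTBD10 stood at 19.2, 14.1, 13.2 and 11.9 CPM. HIPK3 had been put on that list although it is a homeodomain-interacting protein kinase, so the counts are not of transcription factors alone. It stood at 16.5, 13.3, 14.4 and 13.2 CPM, with log2 ratios of -0.27 and -0.31. All 3 were highest in negative control cells. Of the 4 window genes listed under glycan synthesis 2 were measured, both below 0. FJX1 had been put on that list, although it is related to the fly kinase four-jointed. It stood at 61.2, 38.3, 33.8 and 34.0 CPM and was lower in both comparisons. EXT2, a polymerase of heparan sulfate chains, stood at 16.8, 13.02, 13.5 and 13.5 CPM and missed the size rule in both. None of the 3 acute phase genes of the window (SAA1, SAA2 and SAA4) was measured.

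Of the 16 genes of signalling and cell death 9 were measured, 6 lower and 1 higher for the libraries (median -0.72) and 6 lower within the control library (-0.61). RRAS2, a Ras-related GTPase, stood at 25.8 CPM in negative control, 14.8 in positive control, 14.5 in negative knockdown and 10.8 in positive knockdown cells. SAAL1 was the lowest member by ratio, with 25.4 CPM in the control library and 10.4 CPM in the knockdown library (-1.28, -1.37 to -1.20). MAPK8IP1, a scaffold of the JNK pathway, stood at 29.02, 14.9, 15.4 and 15.6 CPM, with log2 ratios of -0.86 and -0.96. For MAPK8IP1 the 3 groups other than negative control cells lay close together. API5, an inhibitor of apoptosis, stood at 27.8, 18.3, 18.1 and 16.03 CPM, and ARL14EP at 34.98, 22.96, 24.1 and 24.1 CPM.

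TP53I11, a gene induced by p53, was the member that went the other way. TP53I11 stood at 11.8 CPM (2520 UMIs) in the control library and 18.1 CPM (2398 UMIs) in the knockdown library, a log2 ratio of 0.62 (0.54 to 0.70). By group it was 11.6 CPM in negative control, 14.6 in positive control, 17.3 in negative knockdown and 18.4 in positive knockdown cells. Its log2 ratio was 0.33 (0.11 to 0.54) within the control library. It overlaps TSPAN18 on the other strand. The long noncoding gene BBOX1-AS1 differed least between libraries, with 11.9 and 11.8 CPM (-0.01, -0.10 to 0.09), yet within the control library it was at -0.37 (-0.64 to -0.12). The other noncoding member, LINC00958, stood at 85.3 CPM in negative control, 51.0 in positive control, 39.3 in negative knockdown and 42.5 in positive knockdown cells, with log2 ratios of -0.997 and -0.74. C11orf74 stood at 31.2, 15.9, 18.3 and 21.2 CPM and had the lowest ratio of all members within the control library, -0.97 (-1.18 to -0.78). C11orf58, of high level, stood at 218, 143, 129 and 128 CPM.

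**Figure D3:**
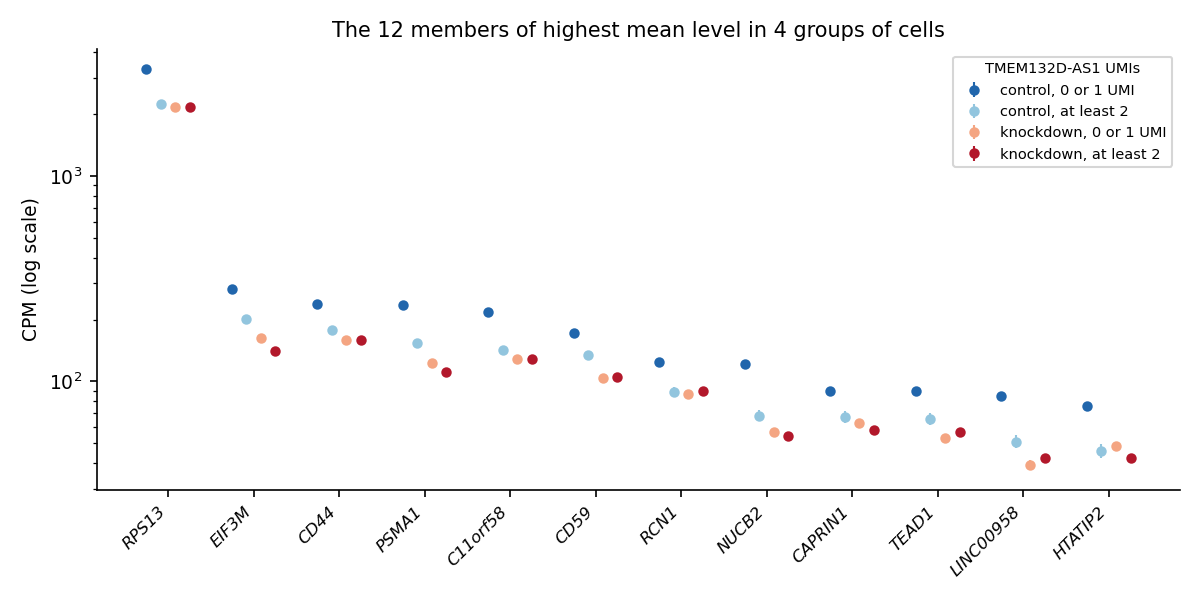
CPM (vertical axis, log scale) of the 12 members of highest mean level in the 4 groups of cells, with 95% Poisson intervals where they exceed the points. Negative control cells (dark blue) are the highest group for every one of these 12, from 3296 CPM for RPS13 to 76.3 CPM for HTATIP2.

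Members of low ratio lay along the whole window. In bins of 5 Mb the median of measured genes for knockdown over control ran from -0.90 at 15 to 20 Mb (12 members) to -0.46 at 40 to 45 Mb (6 members). Within the control library the same bins had -0.61 and -0.32. Over 7 consecutive measured genes the running median in the window stayed between -0.95 and -0.51 for the libraries and between -0.74 and -0.37 within the control library. No measured gene lies in the 6.72 Mb between C11orf74 and API5, and the medians of the 5 Mb bins before and after that gap were -0.82 and -0.46 for the libraries and -0.68 and -0.32 within the control library.

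The ends of the window were not the ends of the shift. The last 3 measured genes before TEAD1 were DKK3, MICAL2 and PARVA, at 0.22, -1.58 and -0.92 for knockdown over control, beside -0.66, -0.997 and -0.62 for TEAD1, LINC00958 and BTBD10 just inside. At the other end TP53I11, MAPK8IP1 and PEX16 were at 0.62, -0.86 and -0.50 inside, and PHF21A, DGKZ and ATG13 at -0.54, -0.77 and -0.80 outside. With a running median of at most -0.3 in both comparisons, a limit set after the values were seen, the stretch ran from IPO7 (start 9384622) to NUP160 (start 47778087) and held 91 measured genes. Of these 89 were below 0 for the libraries and 88 within the control library, beside 56.8% and 51.1% of all measured genes. The stretch was cut by low values in both comparisons, so these counts and the medians of its parts follow largely from that limit. The 16 genes of the stretch before the window had medians of -0.78 and -0.60, and the 18 after it -0.67 and -0.42.

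Beyond the stretch the medians were near 0 when pooled over many genes, but not in every part of the long arm. The next 10 measured genes toward the end of the short arm, TAF10 to TMEM41B, had medians of -0.07 for the libraries and -0.01 within the control library, although TMEM41B itself, next to IPO7, was at -0.90 and -0.53. The next 10 toward the long arm, PTPRJ to CTNND1, had 0.08 and 0.14. All 54 measured genes before the stretch had -0.14 and -0.05, and all 336 after it, GANAB among them, had -0.05 and 0.08. Among the 22 autosomes the lowest whole-chromosome medians were those of chromosome 18 (-0.45 and -0.32), and the highest were 0.14 for chromosome 15 between libraries and 0.20 for chromosome 12 within the control library. The members' medians of -0.73 and -0.60 were lower than any of these, but they set a part of a chromosome against wholes. The window was also picked for low ratios between libraries, so its rank there follows from the choice. Whole chromosome 11 had -0.15 and 0.003, and the lower quartiles of chromosome 18 were -0.77 and -0.59.

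**Figure D4:**
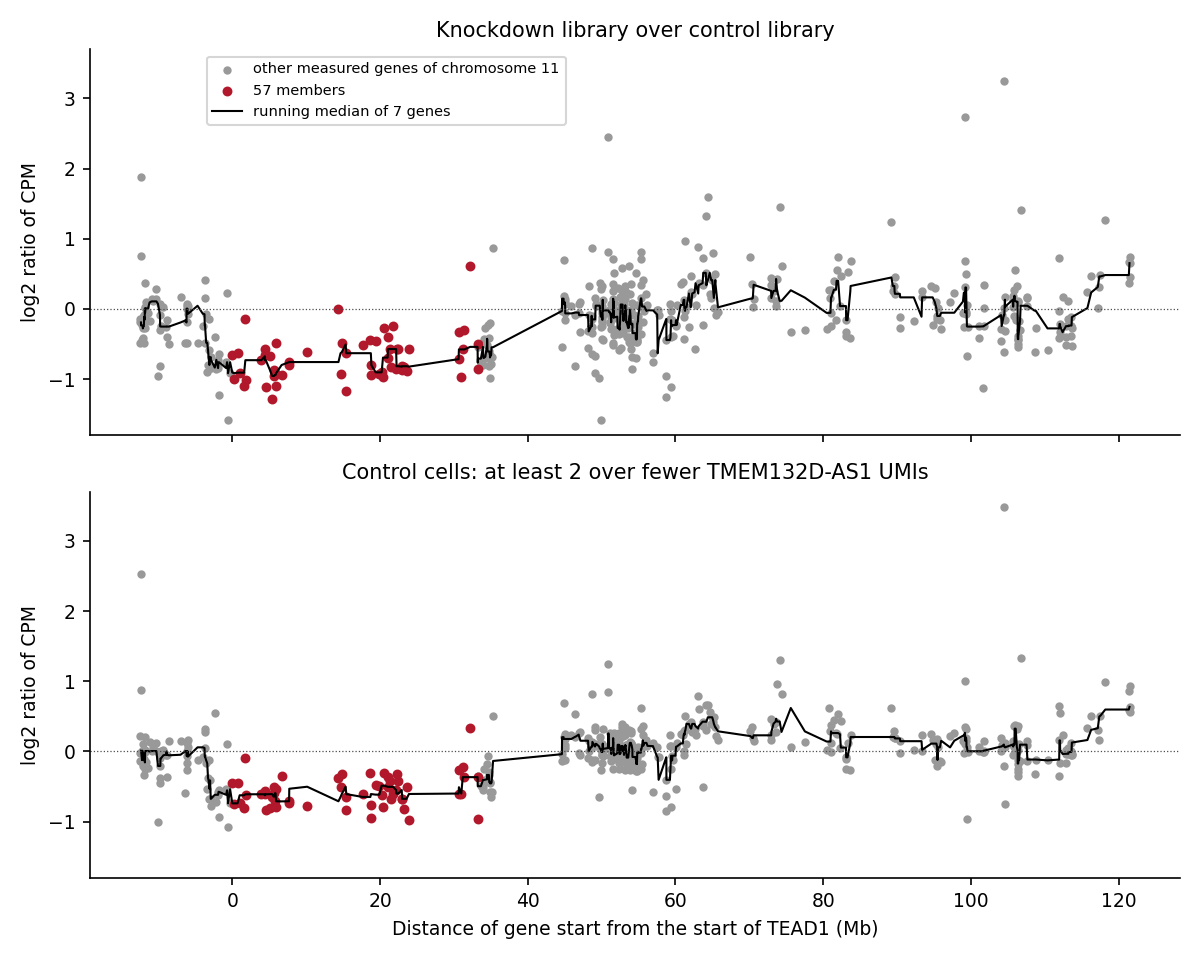
Log2 ratio of CPM (vertical axis) of measured genes of chromosome 11 by distance of their start from that of TEAD1 (horizontal axis, Mb), for knockdown over control (top) and for positive over negative control cells (bottom); red points are the 57 members, grey points other genes, and the line a running median of 7 genes. In both panels the line lies below 0 across the members and some Mb to each side of them, and returns toward 0 just beyond. Farther along the long arm the medians of some bins lay above 0.

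The genes nearest the level rule had ratios within the range of the other members. METTL15, a mitochondrial ribosomal RNA methyltransferase gene, passed with 10.1 CPM in the control library and 6.51 CPM in the knockdown library, and NAV2 with 11.7 and 6.09 CPM. MUC15 missed it with 9.86 and 6.10 CPM and FANCF, a gene of the Fanconi anaemia core complex, with 9.62 and 7.31 CPM. Of the 35 window genes between 1 and 10 CPM, 25 were below 0 for the libraries (median -0.48) and 29 within the control library (-0.53). The share below 0 among all genes of that level was not computed. By annotation 24 members overlap a listed gene on the other strand and 7 one on the same strand. The strand rule of the counting was not given in the sources used here, so reads of such pairs, KIF18A and METTL15 or APIP and PDHX among them, may have been split or merged.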

How the data were processed

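Single cells were measured with 10x Genomics Chromium 3′ v3 chemistry, per the labels, in 1 library of each group. The deposited values are raw UMI counts per gene and barcode, made by the authors with Cell Ranger 3.1.0 against GRCh38 per the submitters' processing notes. Use of a mouse reference and the strand rule were not given in the sources used here. Of the deposited tables, each lists 6794880 barcodes, with 239857346 UMIs for control and 155064055 for knockdown cells, so it had not been restricted to cells. Barcodes of at least 15000 UMIs were kept, 4 of them present in both libraries, and no doublet caller was run. Counts were summed over barcodes and divided by the total (CPM). A 3′ UMI counts a transcript once, so CPM is not scaled by gene length. Ratios carry exact conditional binomial 95% intervals, CPM Poisson intervals. Poisson counts were simulated for 7872 genes. In them the intervals held the true ratio in 95.0% and 95.4% of genes for the comparisons of libraries and of control cells. All 50 genes set to each of 0.25, 0.5, 2 and 4-fold were recovered in each. Such counts vary as the intervals assume, with no spread between cells or libraries, so they check the computation only. Positions came from GENCODE release 29, which matched 33456 of 33538 identifiers.

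The members and the 9 function lists were chosen with earlier results of these data known, the drop of this window in knockdown cells and in some control cells among them. Named members are the 12 of highest mean CPM, the 6 lowest and 6 highest ratios among those of at least 20 CPM, up to 3 per function list, 3 genes on each side of both window ends and 2 on each side of 10 CPM. Others named in the text were chosen after their values were seen. Alternatives covered the UMI and CPM minimums, the TMEM132D-AS1 limit, depth, cell division, scaling and the fold of the size rule. Python 3.11.15 with numpy 2.4.6, pandas 2.3.3, scipy 1.17.1 and matplotlib 3.10.9 was used.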

Additional observations from a re-analysis of the deposited data

How the results depend on the processing

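The members' median log2 ratio kept its sign under every alternative run. It lay between -0.76 and -0.65 over 17 alternatives for knockdown over control, between -0.68 and -0.53 over 22 for positive over negative control cells, and between -0.21 and -0.093 over 21 for positive knockdown over positive control cells. The value of -0.68 came with positive cells defined after thinning to 15000 UMIs. The last comparison moved to -0.10 when centred on other autosomal genes and to -0.093 for barcodes of 30000 to 60000 UMIs. Counts of lower members followed their own limits. For knockdown over control they were 12 of 17 at 50 CPM, 66 of 136 with no filter and 6 of 57 at 2-fold. For control cells they were 8 of 17 at 50 CPM, 49 of 114 with no filter, 50 of 57 at a fold limit below 1.5 and 0 of 57 at 2-fold. Of all 7872 measured genes, 185 for the libraries and 77 for control cells had a log2 ratio of -1 or less, whatever the interval. The shares of all genes under the other limits were not computed, so those counts have no background beside them. Leaving out the 4 barcodes kept in both libraries, an alternative chosen after seeing the data, moved no median or count beyond these ranges. Of 972 values of named members 140 moved past their interval. The sign turned for COPB1 alone, whose interval within the control library spans 0: it was 0.053 among cells with at most 1 UMI of TOP2A and MKI67. No paired analysis was possible because each group has 1 library. No library could be left out for the same reason.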
